A study of Mus musculus with 8 samples.

Results

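Skeletal muscle of the limb arises from progenitors that leave the somites, enter the limb bud and switch on the myogenic regulatory factors. They then leave the cell cycle, fuse into multinucleate fibres, and build sarcomeres and the receptors on which motor nerves act. The list described here follows that sequence through 37 genes: progenitor and regulatory factors, fusion and adhesion genes, sarcomere and cytoskeleton genes, neuromuscular receptor genes, and genes of energy, calcium and membrane function. Members were found by gene symbol, current or older, in the platform's annotation of the deposited value table. Of the 37 genes 33 had a named probe, with 50 probes among 25697 in all. No probe was named for Cdh15, Neb, Myh3 or Tnnt2, so their expression was not analysed here.

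The measurements came from 8 Illumina bead arrays of total RNA from primary cells of mouse forelimb and hindlimb buds at embryonic day 11.5, cultured for 6 h before treatment. Every group was labelled with the strain 129XB6-Sox4fl/fl11fl/fl, so all 3 groups carried floxed alleles of the transcription factor genes Sox4 and Sox11. Cells were left untreated (n = 2 arrays, labelled wild type), or were treated for 24 h with an adenovirus expressing LacZ (the AdeLacZ treated control, here AdLacZ, n = 3) or Cre recombinase (the AdeCre treated mutant, here AdCre, n = 3). Cre is given by the virus and acts in whichever cells it enters; the share of cells reached is not stated. No time is given for the untreated cells, and no group received Cre without floxed alleles. Hence time in culture and virus cannot be told apart, nor can Cre itself and the loss of the floxed genes.

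Each value is an intensity in array units, and a detection floor was set for each array from the spread of its values below 0. The floors lay between 8.87 and 8.93, and 14358 to 14385 probes per array exceeded them. Testing needed 2 or more arrays above the floor, which 15944 probes reached, among them 41 of the 50 muscle probes, covering 26 of the 33 genes. Where a gene had several probes, counts over genes used the tested probe with the highest mean intensity. Intensities of different genes are not a measure of their relative RNA levels, since each probe binds its target differently. Sox4, the check of the Cre arm, read 66.5, 75.9 and 78.1 on the AdLacZ arrays and 10.9, 11.8 and 12.9 on the AdCre arrays (log2 change -1.31 ± 0.13, SE, adjusted p = 0.00114). The offset added in the background correction makes this change smaller than the intensities show: Sox4 changed by -2.63 without the correction and by -0.86 with an offset of 50, and passed in each case. The other floxed gene, Sox11, was not checked here. Limb mesenchyme genes were present in the culture: 12 of 14 measured ones exceeded the floor on every array, among them Prrx1 (529 to 713), Twist2 and Msx1. Whether replicates came from separate cultures is not given, and the p-values rest on a spread between arrays that may be technical only. In such bulk RNA, a change in the number of muscle cells and a change in RNA per muscle cell cannot be told apart.

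Some regulatory factors were detected and others were not. Pax3 and Pax7, which mark muscle progenitors and satellite cells, were below the floor on all 8 arrays, with highest values of -1.45 and 0.406. Myf5, an early determination factor, exceeded the floor on 1 array only (10.2, AdLacZ replicate 1), and Myf6, a late factor, on none (highest 8.50). Myod1 and Myog, the factors that commit myoblasts and start their differentiation, exceeded it on every array. Thus the probes of Myod1 and Myog gave signal on every array, that of Myf5 on 1, and those of Pax3, Pax7 and Myf6 on none. The low probes included those of an early determination factor and a late factor. A relation of this split to stage was not tested. Each of Pax3, Pax7, Myf5 and Myf6 was measured by a single probe, and a low probe does not show that the gene was silent.

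Myod1 read 81.5 and 133 on the untreated arrays, 140, 150 and 158 on the AdLacZ arrays, and 160, 126 and 89.4 on the AdCre arrays. The AdCre arrays spanned nearly the whole range of the other groups. The log2 changes were 0.41 ± 0.20 for AdLacZ against untreated cells (adjusted p = 0.277) and -0.23 ± 0.18 for AdCre against AdLacZ cells (adjusted p = 0.495). The brighter Myog probe read 348 and 351 in untreated cells, 428, 505 and 373 in AdLacZ cells, and 402, 356 and 365 in AdCre cells. Its changes were 0.28 ± 0.13 (adjusted p = 0.246) and -0.19 ± 0.12 (adjusted p = 0.368), so neither exceeded the spread by this test. The other Myog probe (19.2 to 46.6) did not pass in any comparison either. Mef2c, a cofactor of the myogenic factors that is also expressed in endothelium and neural crest, had 3 probes. Its brightest probe read 661 and 630, then 591, 569 and 654, then 697, 673 and 747, in the order untreated, AdLacZ, AdCre, and its AdCre against AdLacZ change was 0.21 ± 0.10 (adjusted p = 0.231).

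**Figure D1:**
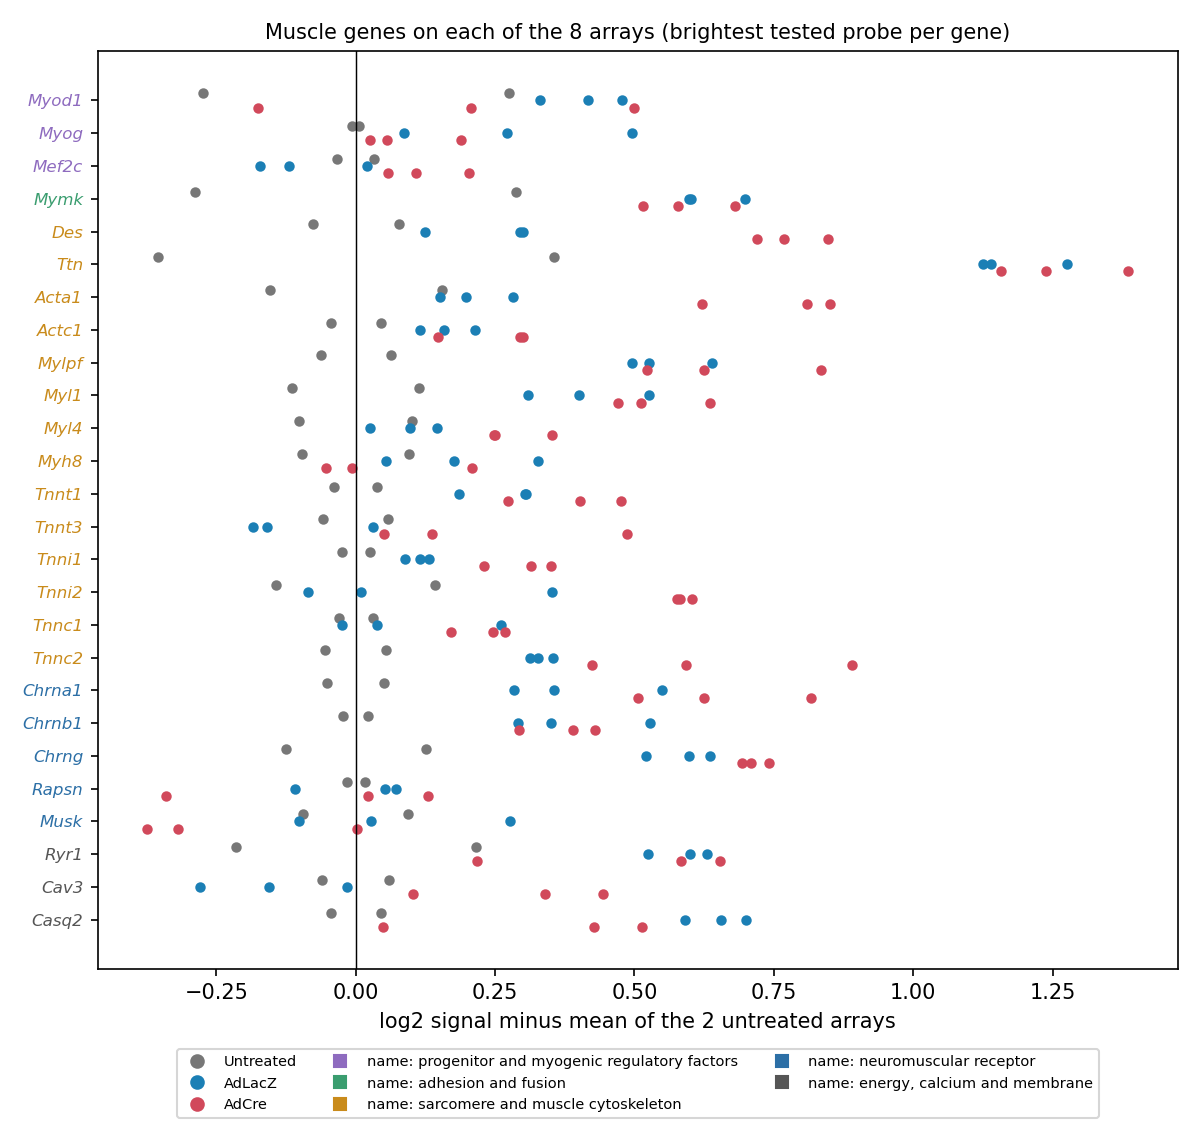
Log2 signal of the 26 tested muscle genes on each array, minus the mean of the 2 untreated arrays, on the brightest tested probe of each gene. Each point is an array (grey untreated, blue AdLacZ, red AdCre), and the colour of a gene's name gives its group. Ttn stands furthest to the right in both virus arms, and the red points of Des and Acta1 lie to the right of their blue points without overlap.

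The AdCre and AdLacZ arms both received virus, and their comparison asks which muscle genes differed with Cre. On the brightest probe of each gene, 2 of the 26 tested members rose and 0 fell. Over all 10772 named genes tested 1.82% rose and 2.79% fell, and over all tested probes 1.59% rose. The 2 were Des, which encodes the muscle intermediate filament protein desmin, and Acta1, the skeletal muscle alpha-actin of the thin filament. No other muscle probe passed. At an unadjusted limma p under 0.05, 6 of the 26 were higher in AdCre cells, beside 11.8% of all named genes, and 1, Casq2, was lower, beside 9.37%. The 6 include Des, Acta1 and Cav3, the last tested through its AdCre arrays only. The median change of the 26 members was 0.12, beside 0.02 for all named genes, and 17 of 26 changes were positive. The AdCre arrays all lay above the AdLacZ arrays for 10 of the 26, against 16.3% of all named genes tested.

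Des read 1324 and 1478 in untreated cells, 1722, 1527 and 1729 in AdLacZ cells, and 2541, 2402 and 2324 in AdCre cells. All 3 AdCre arrays stood above the other 5. The rise over AdLacZ cells was 1.45-fold (log2 0.54 ± 0.10, adjusted p = 0.0166). It ranged from 0.48 to 0.57 with each array left out in turn, but missed the threshold without AdLacZ replicate 2, AdCre replicate 1 or AdCre replicate 2 (adjusted p up to 0.0696).

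Acta1 read 3422 and 4244 in untreated cells, 4375, 4233 and 4640 in AdLacZ cells, and 6703, 6901 and 5879 in AdCre cells. Untreated and AdLacZ arrays overlapped, and the AdCre arrays stood above both. The rise over AdLacZ cells was 1.46-fold (0.55 ± 0.11, adjusted p = 0.0225), with 0.51 to 0.62 when an array was left out. Its call was lost without any 1 of the AdLacZ arrays, AdCre replicate 1 or AdCre replicate 2 (adjusted p up to 0.0859), and without background correction (adjusted p = 0.0562).

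Of the 14 tested sarcomere genes, Des and Acta1 included, 13 had positive changes between AdCre and AdLacZ cells, with a median of 0.16. The AdCre arrays all lay above the AdLacZ arrays for 7 of the 14, beside the 16.3% of all named genes. The other 12 did not pass. Tnni2, the fast-fibre inhibitory troponin, read 526, 380 and 408 in AdLacZ cells and 619, 622 and 632 in AdCre cells (0.50 ± 0.13, adjusted p = 0.0524). It passed in 5 other settings, among them an offset of 50 in the background correction (adjusted p = 0.00891), and missed in the others. Tnnc2, the fast-fibre calcium-binding troponin, differed by 0.30 ± 0.12 (adjusted p = 0.177). Myh8, the perinatal myosin heavy chain, was the exception, at -0.14 on its brighter probe (adjusted p = 0.54).

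Genes of the other groups gave changes on either side of 0 between AdCre and AdLacZ cells. Mymk, which encodes the membrane protein myomaker that is needed for myoblast fusion, differed by -0.04 ± 0.14 (adjusted p = 0.9) on its brighter probe. Chrng, the fetal gamma subunit of the muscle acetylcholine receptor, differed by 0.13 ± 0.10 (adjusted p = 0.488). Its AdCre arrays lay just above its AdLacZ arrays. Casq2, a calcium-storage protein of the sarcoplasmic reticulum, read 158, 164 and 150 in AdLacZ cells and 131, 93.7 and 141 in AdCre cells. It was the single tested member whose AdCre arrays all lay below the AdLacZ arrays on the brightest probe, by -0.32 ± 0.13 (adjusted p = 0.172). Cav3, the muscle caveolin, was not above background on any untreated or AdLacZ array and read 18.9, 8.73 and 15.6 in AdCre cells. Its difference of at least 1.14-fold did not pass (adjusted p = 0.0555), and it was tested because 2 AdCre arrays exceeded the floor.

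**Figure D2:**
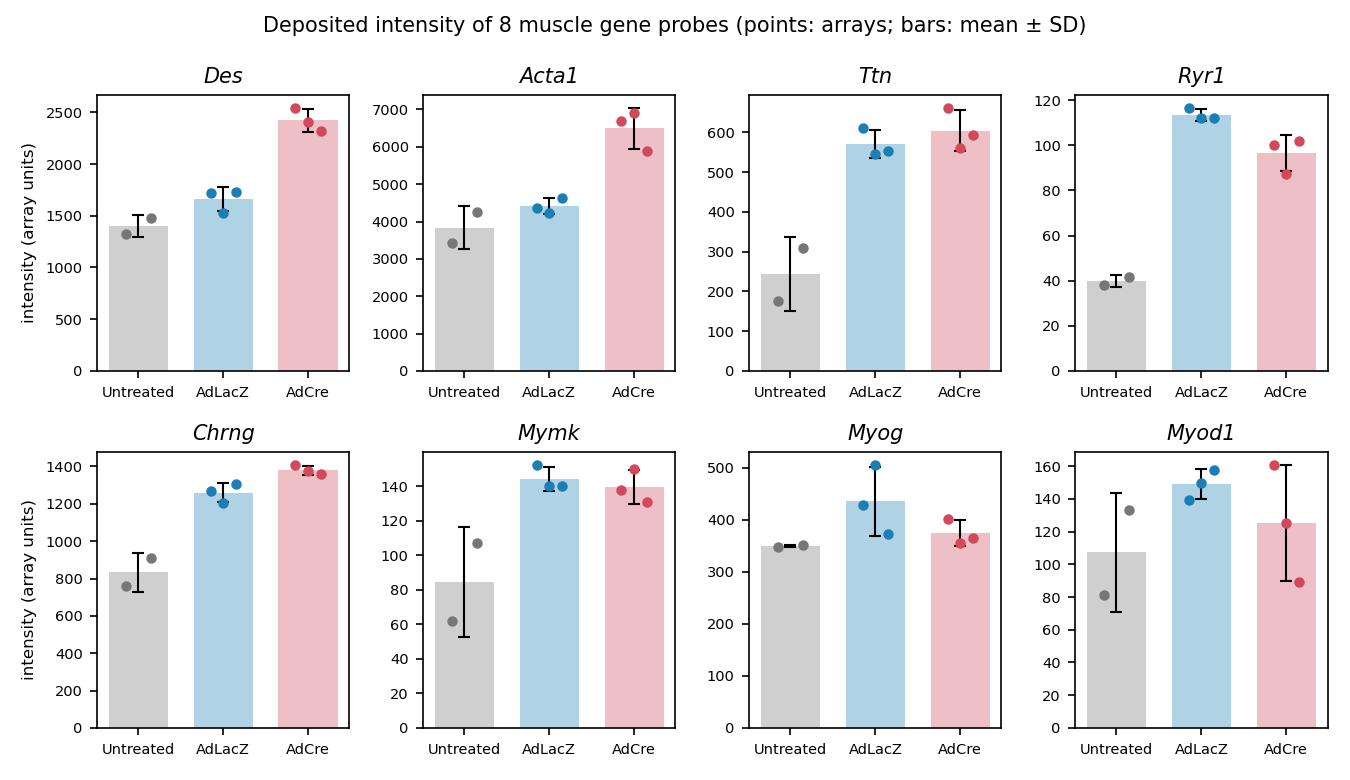
Deposited intensity (array units) of 8 muscle probes in untreated (n = 2), AdLacZ (n = 3) and AdCre (n = 3) cells. Points are arrays, bars are means and error bars are SD; Ryr1 is its probe ILMN_2842357. Des and Acta1 were highest in AdCre cells, whereas Ttn, Ryr1, Chrng and Mymk were higher in both virus arms than in untreated cells.

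The regions just before the start sites of 5 genes that passed are shown here because 2 of them, Des and Acta1, passed between AdCre and AdLacZ cells, while Ttn, Chrng and Chrna1 passed against untreated cells. Each is the 250 bases before an annotated start, from RefSeq (GRCm38.p6), written 5′ to 3′ on the gene's strand. Capitals mark E-boxes (CANNTG, the site of myogenic basic helix-loop-helix factors, the same on both strands), the CArG box bound by serum response factor, and the MEF2 site.
Des, chr1:75360042-75360291, plus strand: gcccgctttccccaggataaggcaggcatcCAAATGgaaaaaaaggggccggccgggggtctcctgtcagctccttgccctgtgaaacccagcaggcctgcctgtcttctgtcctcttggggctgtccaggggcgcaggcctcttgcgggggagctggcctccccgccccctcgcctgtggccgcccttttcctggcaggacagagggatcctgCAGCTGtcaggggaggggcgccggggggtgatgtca
Acta1, chr8:123894776-123895025, minus strand: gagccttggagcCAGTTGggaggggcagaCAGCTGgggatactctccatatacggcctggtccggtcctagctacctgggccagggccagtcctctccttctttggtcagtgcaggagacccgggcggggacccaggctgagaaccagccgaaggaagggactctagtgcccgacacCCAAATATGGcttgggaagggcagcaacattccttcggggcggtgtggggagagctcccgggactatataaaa
Ttn, chr2:76982548-76982797, minus strand: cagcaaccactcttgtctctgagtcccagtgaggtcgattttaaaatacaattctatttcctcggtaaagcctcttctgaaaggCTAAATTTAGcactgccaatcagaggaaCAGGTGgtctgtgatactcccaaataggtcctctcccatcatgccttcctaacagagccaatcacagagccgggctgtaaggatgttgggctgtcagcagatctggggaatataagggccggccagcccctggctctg
Chrng, chr1:87205561-87205810, plus strand: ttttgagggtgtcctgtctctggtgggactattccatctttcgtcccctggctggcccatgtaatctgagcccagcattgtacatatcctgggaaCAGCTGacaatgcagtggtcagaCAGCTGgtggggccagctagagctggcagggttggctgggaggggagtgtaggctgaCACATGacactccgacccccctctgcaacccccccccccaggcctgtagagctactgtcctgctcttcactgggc
Chrna1, chr2:73580339-73580588, minus strand: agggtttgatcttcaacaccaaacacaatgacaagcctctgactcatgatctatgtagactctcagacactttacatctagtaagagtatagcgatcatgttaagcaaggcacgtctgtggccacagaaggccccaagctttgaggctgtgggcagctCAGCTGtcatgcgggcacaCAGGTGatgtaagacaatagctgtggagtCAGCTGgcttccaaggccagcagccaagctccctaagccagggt
An E-box occurred in 27 of the 33 member promoters of the table (28 members matched) and in 66.2% of all 32851. The 28 members include Cdh15, Myh3 and Tnnt2, which had no named probe. The Des region held 2 E-boxes, that of Acta1 2, that of Ttn 1, and those of Chrng and Chrna1 3 each. In Acta1 the run CCAAATATGG, which begins 73 bases before the start, is a CArG box. Such a box was found in 2 of the 33 (Acta1 and Actc1) and in 1.47% of all promoters. In Ttn the run CTAAATTTAG, which begins 166 bases before the start, is a MEF2 site, found in 3 of the 33 and in 2.92% of all. A SOX-type core (ACAANG, either strand) was found in 13 of the 33 and in 36.3% of all, with 2 in Chrng, 1 in Chrna1 and 0 in each of the Des, Acta1 and Ttn regions. The motifs in capitals did not overlap each other in these 5 regions. These matches describe letters in a short window and say nothing about binding.

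The 2 control arms, AdLacZ and untreated, were set against each other next. On the brightest probe 5 of the 26 tested members rose and 0 fell, while 2.95% of all named genes tested rose and 2.6% fell. At an unadjusted limma p under 0.05, 11 were higher and 0 lower, beside 11.3% and 9.96% of all named genes. The 5 were Ttn and Mylpf of the sarcomere, the fusion gene Mymk, Chrng and Casq2. Dimmer probes of Ryr1 and Chrna1 also passed, which makes 7 genes on 8 probes, beside 2.73% of all tested probes that rose. This Chrna1 probe exceeded the floor on the virus arrays only and was tested through them, so its pass is no independent support. The median change of the 26 members was 0.25, beside a median that rounds to 0 for all named genes, and 23 of 26 were positive. The AdLacZ arrays all lay above both untreated arrays for 16 of the 26, against 20.3% of all named genes tested.

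Ttn, which encodes the giant spring protein titin of the sarcomere, showed the largest change among the members. It read 177 and 309 in untreated cells, 610, 547 and 553 in AdLacZ cells, and 661, 560 and 594 in AdCre cells. Both virus arms stood well above the untreated arrays and overlapped each other. The rise from untreated to AdLacZ cells was 2.27-fold (1.18 ± 0.18, adjusted p = 0.00446) and passed with each array left out. Its size depended on the untreated array, with 0.82 without untreated replicate 1 and 1.54 without untreated replicate 2. Between AdCre and AdLacZ cells Ttn differed by 0.08 ± 0.16 (adjusted p = 0.819).

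Ryr1 encodes the calcium release channel of the sarcoplasmic reticulum and had 4 probes. Probe ILMN_2842357, which gave the largest Ryr1 change, read 38.1 and 41.8 in untreated cells, 117, 112 and 112 in AdLacZ cells, and 100, 87.5 and 102 in AdCre cells. It rose 2.06-fold in AdLacZ cells (1.04 ± 0.10, adjusted p = 9.31e-04) and passed with each array left out. The brightest probe gave 0.58 (adjusted p = 0.0623). Another read 44.3 and 93.1, then 153, 133 and 122, then 134, 126 and 106, in the order untreated, AdLacZ, AdCre, with 0.79 (adjusted p = 0.038), and the dimmest, above the floor on 4 of 8 arrays, 0.01. The call on the probe at 0.79 was lost without untreated replicate 1 (0.43), any 1 of the AdLacZ arrays or AdCre replicate 2 (adjusted p up to 0.288). The mean of the 4 Ryr1 probes rose by 0.61 (adjusted p = 0.0187), so the size differs between probes of the gene. Between AdCre and AdLacZ cells ILMN_2842357 differed by -0.18 ± 0.09 (adjusted p = 0.285).

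Acetylcholine receptor genes encode the subunits of the channel that opens at the nerve-muscle contact. Chrng read 758 and 908 in untreated cells, 1270, 1203 and 1304 in AdLacZ cells, and 1407, 1376 and 1359 in AdCre cells. The 3 groups did not overlap and followed the order untreated, AdLacZ, AdCre. The rise in AdLacZ cells was 1.5-fold (0.58 ± 0.11, adjusted p = 0.0142). It was lost without untreated replicate 1 (0.46, adjusted p = 0.143) or AdLacZ replicate 3.

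Chrna1, the alpha subunit that binds acetylcholine, read 920 and 989 in untreated cells, 1409, 1167 and 1229 in AdLacZ cells, and 1703, 1486 and 1367 in AdCre cells on its brightest probe. The AdLacZ change was 0.40 ± 0.13 (adjusted p = 0.107), and 0.40 on a further bright probe (adjusted p = 0.0819). That probe read 698 and 791, then 1095, 888 and 999, then 1187, 1230 and 1155. On both probes the 2 virus arms lay above the untreated arrays. Its dimmest probe was not above background in untreated cells (-2.92 and 5.06), read 21.1, 17.3 and 15.5 in AdLacZ cells and 24.1, 13.7 and 14.5 in AdCre cells, and rose at least 1.23-fold (adjusted p = 0.0294), a call lost without untreated replicate 1 or any 1 of the AdLacZ arrays (adjusted p up to 0.26). Chrnb1, the beta subunit, read 573 and 593, then 854, 720 and 751, then 721, 796 and 773, in the order untreated, AdLacZ, AdCre. Its AdLacZ change was 0.39 ± 0.11 (adjusted p = 0.0731). Chrnd, the delta subunit, was below the floor on all arrays with both probes. Rapsn, which clusters the receptors, changed by 0.00 on its brightest probe (adjusted p = 0.99), and Musk, the receptor kinase of the synapse, exceeded the floor on 2 arrays only.

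Mymk read 62.2 and 107 in untreated cells, 152, 140 and 140 in AdLacZ cells, and 138, 150 and 131 in AdCre cells. The virus arms overlapped each other and lay above the untreated arrays. The rise in AdLacZ cells was 1.55-fold (0.63 ± 0.15, adjusted p = 0.041), and its other probe gave 0.58 (adjusted p = 0.099). The Mymk call was lost without any 1 array except untreated replicate 2, with 0.34 without untreated replicate 1 (adjusted p = 0.299) and 0.92 without untreated replicate 2.

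Mylpf, the fast-fibre regulatory myosin light chain, read 3175 and 2907 in untreated cells, 4387, 4747 and 4296 in AdLacZ cells, and 4701, 4375 and 5442 in AdCre cells. It rose 1.47-fold in AdLacZ cells (0.55 ± 0.12, adjusted p = 0.0271). Casq2 read 85.9 and 93.4 in untreated cells and rose 1.57-fold in AdLacZ cells (0.65 ± 0.14, adjusted p = 0.0257). Both calls were lost without any 1 of the untreated or AdLacZ arrays, although the changes stayed between 0.49 and 0.62 for Mylpf and between 0.60 and 0.69 for Casq2. Des (0.24 ± 0.11, adjusted p = 0.253) and Acta1 (0.21 ± 0.13, adjusted p = 0.38) did not pass between AdLacZ and untreated cells. Without background correction the calls of Mymk, Mylpf, Casq2, the dimmest Chrna1 probe and the Ryr1 probe at 0.79 were lost, and without the filter on dim probes all of these but that of Casq2.

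**Figure D3:**
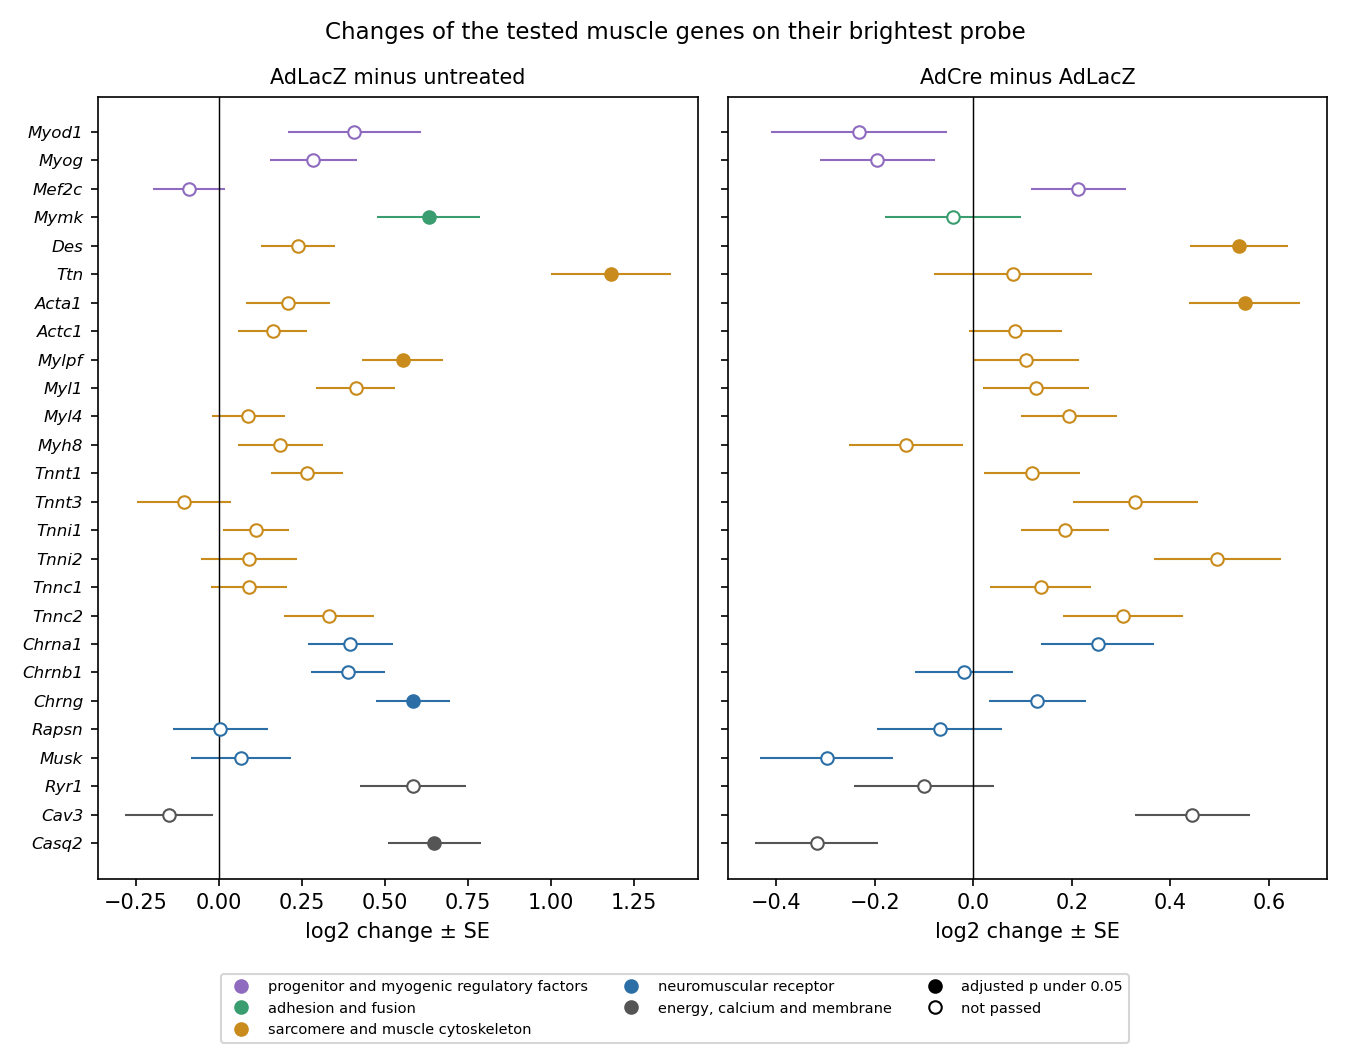
Log2 changes with moderated SE of the 26 tested muscle genes on their brightest probe, for AdLacZ minus untreated (left) and AdCre minus AdLacZ (right). Filled points passed at an adjusted p under 0.05. Ttn, Mylpf, Mymk, Chrng and Casq2 are filled on the left and Des and Acta1 on the right; the AdLacZ arrays enter both panels with opposite sign.

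AdCre cells were also compared with untreated cells, a contrast that shares its arrays with both comparisons above and is therefore no separate evidence. Here 11 of 26 members rose and 0 fell on the brightest probe, while 7.42% of all named genes tested rose and 6.1% fell. At that unadjusted threshold 18 were higher and 0 lower, beside 15.5% and 12.8% of all named genes. The median change was 0.35, beside 0.02 for all named genes. The AdCre arrays all lay above both untreated arrays for 21 of the 26, against 24% of all named genes tested. The 11 were Ttn, Des, Acta1, Mylpf, Myl1, Tnnt1, Tnni2, Tnnc2, Chrna1, Chrng and Mymk. Dimmer probes of Ryr1 (0.86, adjusted p = 9.83e-04) and Mef2c passed too, which makes 13 genes on 16 probes, beside 6.61% of all tested probes that rose. The 16 include the dimmest Chrna1 probe, which was tested through the virus arrays only. The Mef2c probe read 66.3 and 62.9 in untreated cells, 104, 72.2 and 95.8 in AdLacZ cells, and 101, 103 and 122 in AdCre cells (0.55 ± 0.13, adjusted p = 0.0219). Its call was lost without either untreated array or AdCre replicate 3 (adjusted p up to 0.102). The other Mef2c probes gave 0.12 (adjusted p = 0.508) and 0.17 (adjusted p = 0.375), and the mean of the 3 probes gave 0.28 and did not pass (adjusted p = 0.113).

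Of the 14 tested sarcomere genes 8 rose in AdCre against untreated cells, beside 7.42% of all named genes. All 14 changes were positive, beside 53.6%, and their median was 0.46, beside 0.02. Ttn rose by 1.26 ± 0.18 (adjusted p = 0.00195), Des by 0.78 ± 0.11 (adjusted p = 0.00195) and Acta1 by 0.76 ± 0.13 (adjusted p = 0.00381). Tnnc2 read 1039 and 960 in untreated cells, 1261, 1248 and 1285 in AdLacZ cells, and 1522, 1351 and 1877 in AdCre cells. Its 3 groups followed one another without overlap, and AdCre against untreated cells gave 0.64 ± 0.14 (adjusted p = 0.0123). Myl1, the essential light chain of fast fibres, read 4923 and 5773, then 7047, 6609 and 7694, then 8295, 7398 and 7616 (0.54 ± 0.12, adjusted p = 0.0144). The calls of Ttn, Des, Acta1, Mylpf and Chrng passed with each array left out. Without untreated replicate 1 the calls of Myl1, Chrna1, Tnnc2, Tnnt1 and Mymk were lost, that of Mymk falling from 0.59 to 0.30, and 6 genes remained called. Tnni2 (451 and 365 untreated) rose by 0.59 ± 0.14 (adjusted p = 0.0224), a call lost without untreated replicate 2 or with any AdCre array removed (adjusted p values up to 0.14). Tnnt1, the slow-fibre troponin T, read 2588 and 2732, then 3295, 3026 and 3291, then 3710, 3219 and 3522. It rose by 0.38 ± 0.11 (adjusted p = 0.0407), and leaving out any 1 of the 8 arrays ended its call (adjusted p up to 0.191). Without background correction the calls of Mymk, Tnni2 and Tnnt1 were lost, and without the filter on dim probes those of Mymk and Tnnt1.

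Other sarcomere genes exceeded the floor on all 8 arrays but passed in no comparison. The cardiac actin gene Actc1, which is also the actin of fetal skeletal muscle, read 4120 to 5242 over the 8 arrays. Myl4, the embryonic and atrial light chain, read 4445 to 6096, and Tnnc1, the troponin C of slow and cardiac muscle, 8835 to 10865. Tnni1, the slow-fibre inhibitory troponin, read 394 to 519, and Tnnt3, the fast-fibre troponin T, 187 to 315. At the other end, Myh7, the slow and cardiac myosin heavy chain, exceeded the floor on 1 array (11.8), and Ckm, the muscle creatine kinase, on none. The brighter Myh8 probe read 140 to 198.

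Other genes of the muscle lineage that are not members were counted from 5 further lists of 117 genes, of which 81 were tested. Between AdCre and AdLacZ cells 4 rose and 1 fell, beside 1.82% and 2.79% of all named genes, with a median change of 0.07 against 0.02. Myom1, the M-band protein myomesin, read 145, 128 and 138 in AdLacZ cells and 228, 241 and 287 in AdCre cells (0.75 ± 0.11, adjusted p = 0.00526), and passed with each array left out. The muscle glycolytic enzyme genes Pgam2 (0.59 ± 0.10, adjusted p = 0.013) and Eno3 (0.47 ± 0.10, adjusted p = 0.0256) rose as well. Both also passed between AdLacZ and untreated cells when all arrays were used. With an array left out, those changes were 0.35 to 0.55 for Pgam2 and 0.45 to 0.64 for Eno3. The Pgam2 call between AdLacZ and untreated cells was lost with any 1 of the 8 arrays left out. That of Eno3 was lost without untreated replicate 1 or AdLacZ replicate 1 or 2. Nrap, a protein of forming myofibrils, rose at least 1.27-fold. Its probe was above background on the 3 AdCre arrays only and was tested through them. Tpm3, a tropomyosin that is also expressed outside muscle, fell by 0.42 (adjusted p = 0.0357). Between AdCre and AdLacZ cells, Pgam2 missed the threshold without AdLacZ replicate 2 or 3. Eno3 and Tpm3 missed it without any 1 of the 6 virus arrays, and Nrap without any of them but AdCre replicate 3 (adjusted p up to 0.112).

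Between AdLacZ and untreated cells 14 of these 81 genes rose and 2 fell, beside 2.95% and 2.6% of all named genes, so the share that fell is near the background. The median change was 0.16. The calcium-handling genes Hrc (1.02 ± 0.13, adjusted p = 0.00216) and Atp2a1, the calcium pump of fast fibres (0.94 ± 0.17, adjusted p = 0.0102), rose. So did Actn3, the fast-fibre alpha-actinin (0.93 ± 0.10, adjusted p = 0.00131), Unc45b, a myosin chaperone (0.75), and Cryab, a small heat shock protein (0.75). At the synapse Agrn (0.98 ± 0.17, adjusted p = 0.00976) and its receptor gene Lrp4 (0.65) rose, and both are also expressed in non-muscle cells. Itga7, the laminin receptor subunit of myoblasts, rose (0.83), while the regulator gene Eya4 (-0.58) and Msc, a repressor of myogenic factors (at least 1.22-fold), fell. Msc was above background on the 2 untreated arrays only and was tested through them. The calls of Hrc and Actn3 passed with each array left out. Without untreated replicate 1 those of Atp2a1, Unc45b, Cryab, Agrn, Lrp4, Itga7, Eya4 and Msc were lost (adjusted p up to 0.24). Leaving out some AdLacZ array also ended the calls of Lrp4, Itga7 and Msc, and leaving out untreated replicate 2 those of Cryab and Lrp4. Against untreated cells 27 of the 81 rose in AdCre cells, beside 7.42% of all named genes, and 4 fell, beside 6.1%, which is near their share.

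The untreated arrays themselves differed over the muscle genes. Untreated replicate 2 read higher than replicate 1 for 18 of the 26 members, beside 50% of all named genes tested, and its values for Myod1, Mymk, Ttn and the probe of Ryr1 with 44.3 and 93.1 lay nearer to the virus arms. The interferon-induced genes Isg15 (40.4 and 209 untreated, 888 to 1455 in AdLacZ cells) and Usp18 (27.8 and 466 untreated, 1764 to 2042 in AdLacZ cells) showed the same order of these arrays. The part of this difference in the muscle results was not tested beyond the values without each untreated array given above.

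Markers of other cells moved as well. Macrophage markers (9 of 12 with a probe) summed to 940 to 1388 intensity units in untreated cells, 293 to 336 in AdLacZ cells and 263 to 290 in AdCre cells. Erythroid markers (7 of 8) summed to 6102 to 7228, 4176 to 4738 and 1329 to 1890. Cartilage markers (8 of 9) summed to 248 to 341, 625 to 705 and 553 to 609. Below the floor on all arrays were 1 macrophage, 2 erythroid and 1 cartilage marker, and in the lists that follow Krt5 of the ectoderm and Cdh5 of the endothelium. Surface ectoderm markers (7 of 8) summed to 253 to 321, 421 to 471 and 519 to 586, without overlap and in the same order of groups as the muscle members. Of the 6 tested, 3 rose in AdCre against untreated cells (Krt14, Krt18 and Krt8), beside 7.42% of all named genes. The call of Krt8 was lost without untreated replicate 1. Neuron and Schwann cell markers (6 of 9) summed to 321 to 340, 406 to 459 and 257 to 300. Between AdLacZ and untreated cells, however, 2 of these 6 genes had positive changes, with a median of -0.11 and 1 gene called higher. Endothelial markers (6 of 7) summed to 142 to 154, 98.7 to 110 and 74.5 to 98.3. Yet 2 of the 3 tested endothelial genes had positive changes against untreated cells in each virus arm, with medians of 0.19, and 1 fell. Limb mesenchyme markers (14 of 15) summed to 6760 to 7427 over all arrays, with overlapping groups. Single genes of this list still moved: 1 of 14 rose and 1 fell against untreated cells in each virus arm. Over all named genes 2.95% rose and 2.6% fell in AdLacZ cells, and 7.42% and 6.1% in AdCre cells. Their changes ran from -0.66 to 1.08 in AdLacZ cells and from -0.53 to 0.99 in AdCre cells. The 33 muscle members summed to 39095 to 42420, 46416 to 50547 and 53664 to 57577. Bright sarcomere probes such as those of Tnnc1 and Myl1 weigh most in these sums, which hardly follow the dimmer regulatory, fusion and calcium genes. The part of these shifts in the muscle results was not tested.

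Some members are also expressed in cardiac, smooth muscle or contractile mesenchymal cells. Of the 9 cardiac markers Myl2 and Myl7 were below the floor on all 8 arrays, and Myh6, Tnni3, Nkx2-5 and Tbx20 exceeded it on 1 array each. Nppb (179 to 268) and Nppa (17.8 to 31.2) were above the floor on all arrays, and Gata4 on 2. None of the 3 that were tested passed in any comparison. Of the 10 smooth muscle markers, which include Des, 7 exceeded the floor on all arrays and none was below it on all. Between AdCre and AdLacZ cells 2 of the 10 rose (Des and Actg2) and 0 fell, beside 1.82% and 2.79% of all named genes. Of the 10 changes 9 were positive, beside 54.7%, with a median of 0.31 beside 0.02. The AdCre arrays all lay above the AdLacZ arrays for 5 of the 10, beside 16.3%. Against untreated cells 4 of the 10 rose in AdCre cells, beside 7.42% of all named genes, with a median of 0.45 beside 0.02. The 4 were Des, Lmod1 (0.73 ± 0.17, adjusted p = 0.0158), the cofactor gene Myocd (0.50 ± 0.13, adjusted p = 0.0317) and Cnn1 (at least 1.16-fold, adjusted p = 0.0423). The Cnn1 probe was not above background in untreated cells. The call of Lmod1 was lost without untreated replicate 2 (0.46, adjusted p = 0.112), that of Myocd without untreated replicate 1, AdCre replicate 1 or AdCre replicate 3 (adjusted p up to 0.218), and that of Cnn1 without any array but AdCre replicate 3 (adjusted p up to 0.228). Actg2, the smooth muscle gamma-actin, read 1009, 843 and 834 in AdLacZ cells and 1308, 1349 and 1487 in AdCre cells (0.61 ± 0.12, adjusted p = 0.0174), and lost its call without AdLacZ replicate 2 or 3 or AdCre replicate 2 or 3 (adjusted p up to 0.0707). Acta2, the smooth muscle alpha-actin, read 20421 to 23837 with overlapping arms, and Tagln 989 to 1167 in AdLacZ cells and 1306 to 1414 in AdCre cells (0.31, adjusted p = 0.0934). The 10 markers summed to 25680 to 28545 in untreated, 26932 to 28246 in AdLacZ and 26902 to 29676 in AdCre cells, with most of the summed intensity on the Acta2 probe, so the sum hardly follows the other markers. The part of these markers in the changes of Des and other members was not tested.

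**Figure D4:**
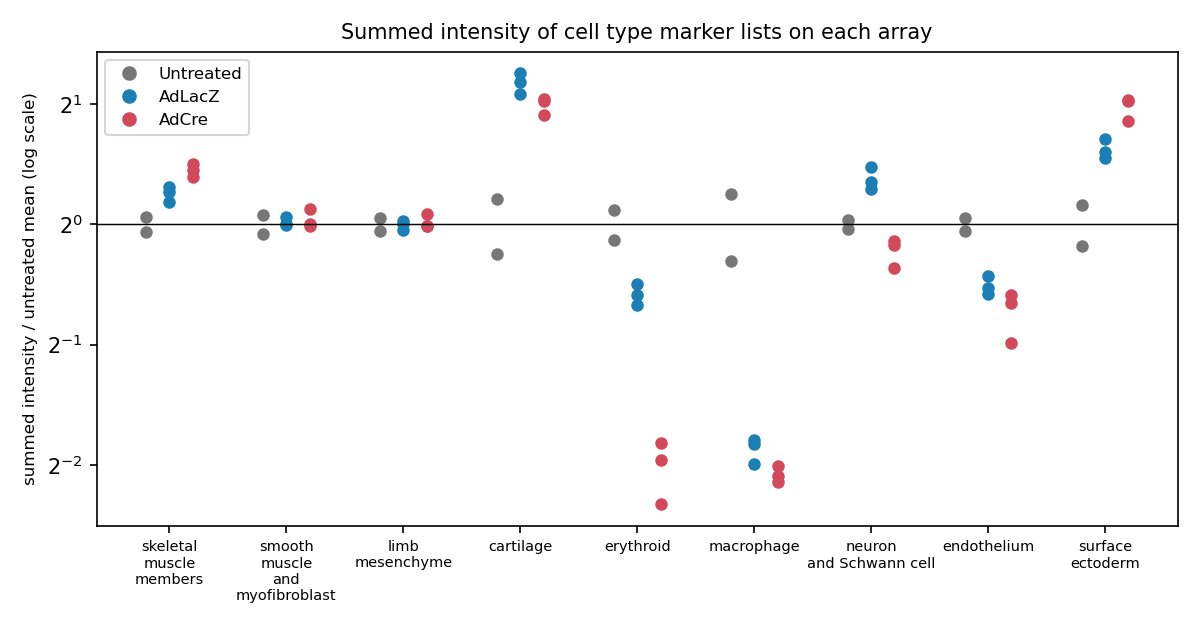
Summed intensity of marker lists on each array, divided by the mean of the 2 untreated arrays, on a log scale. Points are arrays (grey untreated, blue AdLacZ, red AdCre). The sum of muscle members stands above 1 in both virus arms, and that of limb mesenchyme markers stays near 1. Sums of cartilage and surface ectoderm markers are higher, and those of erythroid, macrophage and endothelial markers lower, in the virus arms. A sum follows its brighter probes, and single markers of a list can move the other way.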

How the data were processed

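Labelled RNA from 8 samples was hybridised to Illumina bead arrays, and BeadStudio 2.1 is named in the submitters' processing notes. The deposited value table holds an intensity per probe and array. Of these values 25.7% lay below 0, as after background subtraction, and the arrays differed by at most 0.19 at any rank, as after a normalization to one distribution. The sources used here do not state either step. A table with 32 per-sample columns named by chip position matched no label and was not used. Intensities were corrected by limma's normexp (limma 3.58.1 under R 4.3.3), adding an offset of 16 that shrinks changes of dim probes, and put on the log2 scale. The floor was 1.645 times the background SD of each array. Where a whole group lay below it, its level was taken as the higher of the floor and the probe's own value, and the fold is given as at least that.

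A linear model with 3 groups was fitted to all 8 arrays and 15944 probes with lmFit and eBayes, leaving 5 residual and 5.64 prior degrees of freedom. Passing means an adjusted p (Benjamini-Hochberg, across the tested probes) under 0.05. All tests were 2-sided, changes are log2, errors are moderated SE, and the script was tested on simulated data. The number of arrays limits precision: the median SE over tested probes was 0.119 between the virus arms and 0.134 in contrasts with untreated cells. Probes were named by the platform annotation (23978 named, 1719 not), updated through the RefSeq table of GRCm38.p6. Each member was accounted for, members that passed were named with every array, and up to 6 passing genes of each other list by smallest p could be named. The members and lists were chosen with earlier results of these data known. Replicate numbers were not shown to pair samples. Across the tested probes, deviations of same-numbered AdLacZ and AdCre arrays correlated at 0.0225, -0.00143 and -0.0569. Same-numbered pairs with an untreated array lay between -0.142 and 0.017, and differently numbered pairs reached 0.144. Figures used matplotlib 3.10.9.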

Additional observations from a re-analysis of the deposited data

How the results depend on the processing

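No member fell in any comparison under any setting tried. The muscle genes counted in this section are the members only, without the other muscle lists. With one array left out at a time, the muscle genes that rose numbered 0 to 2 for AdCre against AdLacZ, 1 to 5 for AdLacZ against untreated and 6 to 10 for AdCre against untreated cells. The probes passing numbered 192 to 774, 168 to 849 and 712 to 2008 in the same order. For AdCre against AdLacZ, 1 muscle gene rose without background correction, and the probes passing were 503 without it, 1420 with an offset of 50, 406 without the filter on dim probes and 1432 with a trended robust prior, against 802. For AdLacZ against untreated cells, the muscle genes that rose were 2, 9, 3 and 9 under these settings against 5, and the probes passing were 549, 1440, 486 and 1500 against 834. With a replicate block, 1 muscle gene rose between AdLacZ and untreated cells, and 498 and 442 probes passed in these 2 comparisons. The numbers are not shown to pair the samples. The cause of these shifts was not tested. Quantile normalization, array weights, a floor on at least 5 arrays, the mean over a gene's probes and a fit of the 2 groups alone kept the muscle counts within 1.5 times. Dim probes are limited by signal over background, and the untreated arm by its 2 arrays.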
